A study of Mus musculus with 8 samples.

Results

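The genes described here are the ligands and receptors of the classical axon guidance families: semaphorins of classes 3 to 7 with their plexins and neuropilins, ephrins with Eph receptors, Slits with Robos, and netrins with Unc5 receptors. They were chosen by a rule on gene symbols that uses no measured value, although earlier results of these data were known at the time. Of the 46517 genes in the expression table, 67 were members, 34 of them ligands and 33 receptors, and all 67 are protein coding. They were measured by RNA sequencing in stem cells of the hair follicle bulge, from which new hair grows. The cells came from the back skin of males at postnatal day 70, a time of follicle rest, and per the labels were sorted by CD34 and integrin alpha 6 with Sca-1 and DAPI both negative.

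There were 4 groups of 2 libraries, each library from another animal number. NFIB/X-dKO (animals 33 and 36) carried Sox9-CreER with floxed Nfib (NFIBfl/fl) and floxed Nfix (NFIXfl/fl). NFIB-cKO (81 and 85) carried Sox9-CreER with NFIBfl/fl. NFIX-cKO (32 and 88) carried Sox9-CreER with NFIXfl/fl and 1 floxed Nfib allele (NFIBfl/+). WT (34 and 82) carried NFIBfl/fl and NFIXfl/fl without the Cre, and all 4 groups carried the R26-YFPfl/fl reporter. Sox9-CreER is a Cre recombinase under control of Sox9, a gene of the follicle lineage, and the sources used here do not give how it was induced. The knockout cells were gated on YFP and the WT cells were not, so in every comparison with WT the deletion, the Cre and the gate cannot be told apart. Both targeted genes encode nuclear factor I transcription factors, which the series title places in stem cell chromatin and hair loss.

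Guidance ligands are secreted or membrane-bound cues that attract or repel growing axons, and blood vessels read many of the same cues. Secreted class 3 semaphorins mostly act through neuropilins paired with plexins, whereas Sema3e binds plexin D1 directly. Ephrins bind Eph receptor tyrosine kinases on neighbouring cells and signal in both cells, Slits bind Robos, and netrins bind Dcc or, for repulsion, Unc5 receptors. In skin, guidance cues are known for patterning sensory nerve endings and vessels, and Eph signalling is known for its part in epidermal growth and cell sorting.

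The libraries were first checked for what the groups do not explain. The 5 libraries with count tables held between 57173266 and 66854625 expected counts, and depth is unknown for the other 3, which are NFIB-cKO 81 and both WT libraries. All 10 hair follicle stem cell markers were expressed, with Krt15 from 7506.72 to 14486.65 TPM. TPM, the deposited unit, is a level scaled by transcript length and library. Total Nfib was 376.85 and 388.57 TPM in NFIB/X-dKO, 293.27 and 232.8 TPM in NFIB-cKO, 199.97 and 147.91 TPM in NFIX-cKO, and 229.56 and 208.98 TPM in WT. Total Nfix ran from 123.35 to 158.02 TPM over the 8 libraries. Which exons the floxed alleles lose is not in the labels, so these totals check no label. The animals also fell into numbers in the 30s and numbers in the 80s, and 498 genes were higher and 1937 lower in the 80s with the groups in the model. NFIB/X-dKO held animals of the 30s alone and NFIB-cKO animals of the 80s alone, while NFIX-cKO and WT held an animal of each.

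The guidance families differed in the share of their members that reached the tested range in these cells. Of the 67 genes, 42 had at least 1 TPM in at least 2 libraries and were tested. The other 25 stayed below 1 TPM in every library, and the highest value among them was 0.83 TPM, for the receptor Unc5d in NFIB/X-dKO 33. Epha8 was at 0 TPM throughout. By mean TPM over the 8 libraries, 5 members lay at 100 or above, 20 between 10 and 100, 16 between 1 and 10, and 26 below 1. The tested members numbered 5 of 7 secreted semaphorins, 8 of 13 membrane semaphorins, 5 of 5 ephrin-A and 3 of 3 ephrin-B ligands, 2 of 3 Slits and 1 of 3 netrins. Among receptors they numbered 6 of 9 plexins, 2 of 2 neuropilins, 3 of 9 EphA, 4 of 5 EphB, 2 of 4 Robos and 1 of 4 Unc5 receptors.

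The highest level belonged to Ephb6, an Eph receptor whose kinase domain is inactive. It stood at 283.63 and 284.82 TPM in NFIB/X-dKO, 320.03 and 298.84 TPM in NFIB-cKO, 363.75 and 337.75 TPM in NFIX-cKO, and 252.82 and 278.53 TPM in WT. The ligand Efna1, which binds EphA receptors, followed with 174.72 and 199.17 TPM in NFIB/X-dKO, 266.07 and 341.05 TPM in NFIB-cKO, 169.69 and 245.73 TPM in NFIX-cKO, and 147.88 and 221.48 TPM in WT. Sema3e, a secreted repellent of axons and vessels, came next by mean, at 154 TPM over the 8 libraries. Efnb2 and Efna3 followed at 121 and 106 TPM, and their 8 libraries ran from 103.03 to 137.31 TPM and from 85.81 to 124.99 TPM. Sema3c (51.0 to 106 TPM over the 8 libraries) and, by mean, the semaphorin receptors Plxnb2 (77.5 TPM) and Plxnb1 (67.2 TPM), the EphA receptor Epha2 (75.3 TPM) and the membrane semaphorin Sema4a (71.8 TPM) completed the 10 highest means.

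Receptor and ligand levels were uneven within a pathway. Plexin D1, which Sema3e binds, was at 1.34 and 1.67 TPM in NFIB/X-dKO, 2.01 and 2.31 TPM in NFIB-cKO, 0.97 and 1.11 TPM in NFIX-cKO, and 1.04 and 2.42 TPM in WT. Nrp1 and Nrp2 did not exceed 6.53 and 1.92 TPM in any library. For the netrin receptors, Unc5b reached 23.45 TPM, whereas the netrin ligand Ntn1 did not exceed 0.09 TPM and the basement membrane netrin Ntn4, the highest of its family, lay between 2.09 and 6.22 TPM. For the Robos, Robo2 reached 35.43 TPM, while the highest Slit by mean, Slit3, lay between 1.21 and 2.80 TPM.

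**Figure D1:**
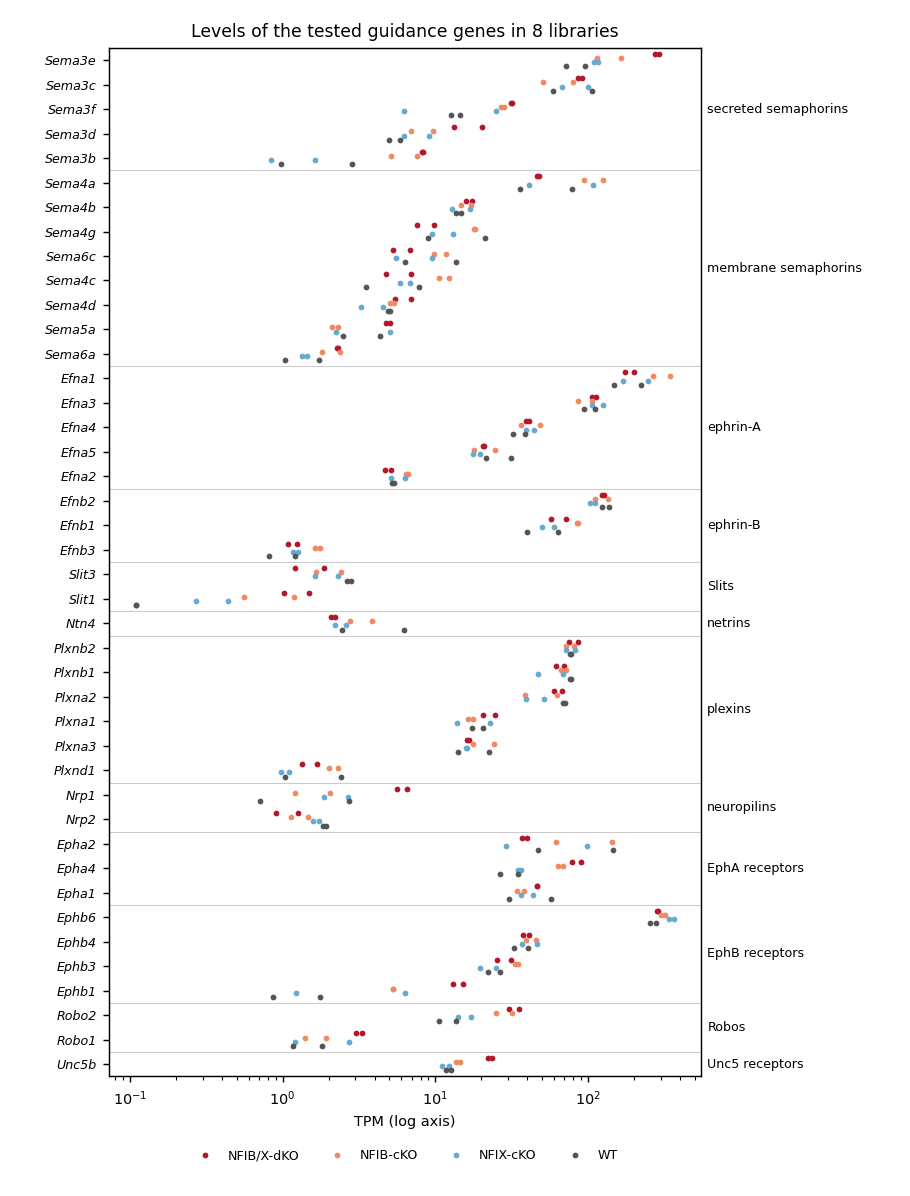
TPM (log axis) of the 42 tested guidance genes in the 8 libraries, grouped by family and coloured by genotype, with 1 point per library. The 4 NFIB-deleted libraries stand to the right for Epha4 and Robo2, while Plxnb2, between 71.83 and 86.17 TPM, shows no such split.

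In NFIB/X-dKO cells, both transcription factor genes deleted, 6 of the 42 tested guidance genes rose against WT and 0 fell. They were 2 ligands, Sema3e and Sema3d, and 4 receptors, Epha4, Ephb1, Robo2 and Unc5b. Over all genes tested, 2.88% passed in either direction and 1.62% were higher. The test was limma on log2(TPM + 1), and a call is an adjusted p under 0.05. The members' median difference was 0.13, against 0.16 over all genes.

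Sema3e stood at 290.91 and 274.75 TPM in NFIB/X-dKO, 114.05 and 163.60 TPM in NFIB-cKO, 116.50 and 109.19 TPM in NFIX-cKO, and 94.90 and 71.40 TPM in WT. Both NFIB/X-dKO libraries were above all 6 others, and both WT libraries were below all 6 others. The NFIB/X-dKO mean was 3.40 times the WT mean, a log2 difference of 1.77 ± 0.20 (SE, adjusted p = 0.00833). Sema3d, a secreted semaphorin gene also on chromosome 5, had 20.32 and 13.29 TPM in NFIB/X-dKO, 6.90 and 9.70 TPM in NFIB-cKO, 9.13 and 6.27 TPM in NFIX-cKO, and 5.91 and 5.0 TPM in WT. Its NFIB/X-dKO libraries were the highest of the 8 and its WT libraries the lowest. The difference from WT was 1.44 ± 0.28 (adjusted p = 0.0474). The Sema3d call was lost in 13 of 16 alternatives, with adjusted p from 0.0398 to 0.339, and with the animal series as a covariate the difference was 1.27 (adjusted p = 0.070).

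Epha4, a receptor for both ephrin classes, was at 77.99 and 90.07 TPM in NFIB/X-dKO, 68.48 and 63.50 TPM in NFIB-cKO, 34.99 and 36.14 TPM in NFIX-cKO, and 26.63 and 34.68 TPM in WT. The 4 NFIB-deleted libraries all lay above the 4 others, and NFIX-cKO lay just above WT. The NFIB/X-dKO mean was 2.74 times the WT mean, a log2 difference of 1.43 ± 0.16 (adjusted p = 0.00746). Ephb1, a receptor for ephrin-B ligands, was at 13.10 and 15.18 TPM in NFIB/X-dKO, 5.32 and 5.27 TPM in NFIB-cKO, 6.30 and 1.22 TPM in NFIX-cKO, and 1.75 and 0.87 TPM in WT. NFIX-cKO 32 was above both NFIB-cKO libraries, and NFIX-cKO 88 lay between the 2 WT libraries. The Ephb1 mean in NFIB/X-dKO was 10.8 times that in WT, where its level was low, with a log2 difference of 2.74 ± 0.51 (adjusted p = 0.0422). The Ephb1 call was lost in 8 of 16 alternatives, among them a pseudocount of 0.1 and no filter on low values.

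Robo2, a receptor for Slits, had 30.48 and 35.43 TPM in NFIB/X-dKO, 24.89 and 31.58 TPM in NFIB-cKO, 14.14 and 17.08 TPM in NFIX-cKO, and 10.53 and 13.70 TPM in WT. NFIB/X-dKO and NFIB-cKO overlapped each other, and all 4 of their libraries exceeded the 4 others. The difference between NFIB/X-dKO and WT was 1.38 ± 0.20 (adjusted p = 0.020). Unc5b, a netrin receptor also known from blood vessels, was at 22.24 and 23.45 TPM in NFIB/X-dKO, 14.46 and 13.67 TPM in NFIB-cKO, 12.36 and 11.11 TPM in NFIX-cKO, and 11.67 and 12.68 TPM in WT. The other 6 libraries lay close together, below both NFIB/X-dKO libraries. Its difference from WT was 0.86 ± 0.15 (adjusted p = 0.0308). The Unc5b call was lost in 8 of 16 alternatives, among them median-of-ratios scaling and the fit of the compared groups alone.

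**Figure D2:**
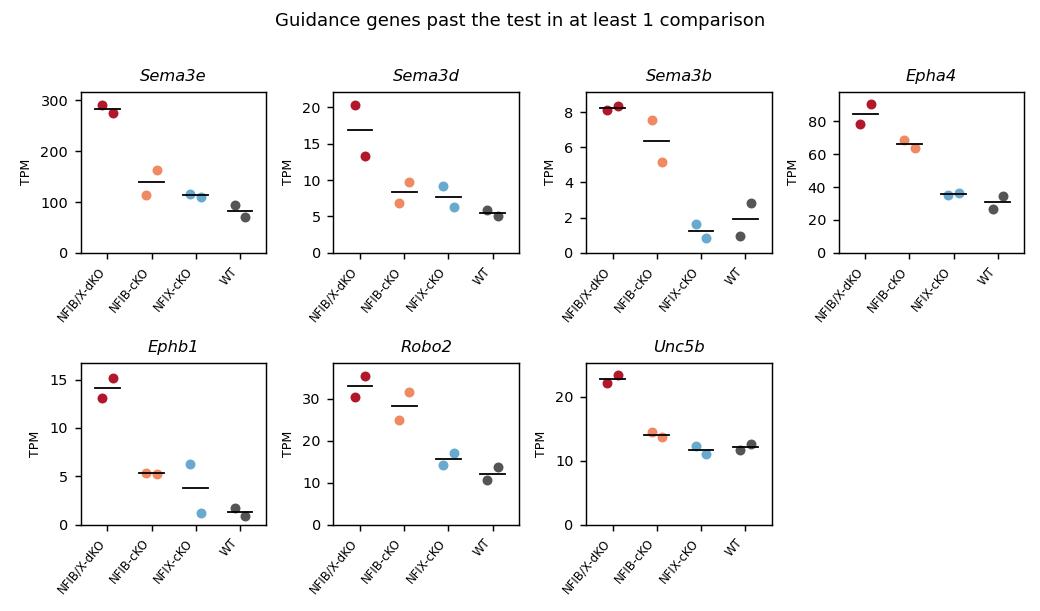
TPM in each library (points) and group mean (bars) of the 7 guidance genes that passed the test in at least 1 comparison. The NFIB/X-dKO libraries are highest for Sema3e, at 290.91 and 274.75 TPM, and for Unc5b, at 22.24 and 23.45 TPM, while Epha4, Robo2 and Sema3b are high in both NFIB-deleted groups.

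The next members by p-value did not pass. Sema3b, a secreted semaphorin, had 8.13 and 8.35 TPM in NFIB/X-dKO, 7.55 and 5.16 TPM in NFIB-cKO, 1.62 and 0.84 TPM in NFIX-cKO, and 0.97 and 2.86 TPM in WT. Its 4 NFIB-deleted libraries lay above the 4 others, and NFIB/X-dKO differed from WT by 1.74 ± 0.36 (adjusted p = 0.0574). The neuropilin Nrp1 had 6.53 and 5.64 TPM in NFIB/X-dKO, 2.05 and 1.2 TPM in NFIB-cKO, 2.69 and 1.86 TPM in NFIX-cKO, and 2.73 and 0.71 TPM in WT. Both NFIB/X-dKO libraries stood above the other 6, which overlapped, and the difference from WT was 1.49 ± 0.39 (adjusted p = 0.111). Slit1, near the lower limit of the tested range, had 1.48 and 1.02 TPM in NFIB/X-dKO, 0.56 and 1.18 TPM in NFIB-cKO, 0.27 and 0.44 TPM in NFIX-cKO, and 0.11 TPM in both WT libraries. NFIB/X-dKO differed from WT by 1.01 ± 0.26 (adjusted p = 0.106). Robo1 differed by 0.75 ± 0.30 (adjusted p = 0.277), with 3.02 and 3.30 TPM in NFIB/X-dKO against 1.82 and 1.17 TPM in WT.

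Summed over a family, secreted semaphorins had 436.76 and 419.53 TPM in NFIB/X-dKO, 236.32 and 256.58 TPM in NFIB-cKO, 252.12 and 190.55 TPM in NFIX-cKO, and 221.00 and 152.48 TPM in WT. Sema3e made up most of the difference, and Sema3c, with 85.42 and 91.69 TPM in NFIB/X-dKO against 106.38 and 58.52 TPM in WT, lay inside the WT range. Plexins summed to 233.89 and 265.74 TPM in NFIB/X-dKO, against 258.54 and 266.16 TPM in WT. None of the 6 tested plexins and none of the 8 tested ephrins passed the test, with differences from WT between -0.24 and 0.24 for plexins and between -0.31 and 0.34 for ephrins. Of the 8 tested membrane semaphorins 0 passed, with differences between -0.63 and 0.48.

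With NFIB/X-dKO 33 left out 0 members passed and 0.322% of all genes did, and without NFIB/X-dKO 36 the values were 0 members and 0.262%, where 2.88% had passed with all libraries. The differences changed less, with Epha4 at 1.54 and 1.33 and Sema3e at 1.73 and 1.81 without 33 and without 36. Without NFIB-cKO 81 (1.57% of all genes), NFIB-cKO 85 (1.56%) or WT 34 (2.29%), 3 members passed in each case. After median-of-ratios scaling, which moved the median gene from 0.16 to 0.00, 3 of the 6 passed, Epha4 (1.25), Ephb1 (2.58) and Sema3e (1.59). In the fit within series, which sets both NFIB/X-dKO libraries against WT 34 alone, 7 members were higher and 1, Ntn4, was lower (-1.20, adjusted p = 0.0467), against 4.9% of all genes.

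**Figure D3:**
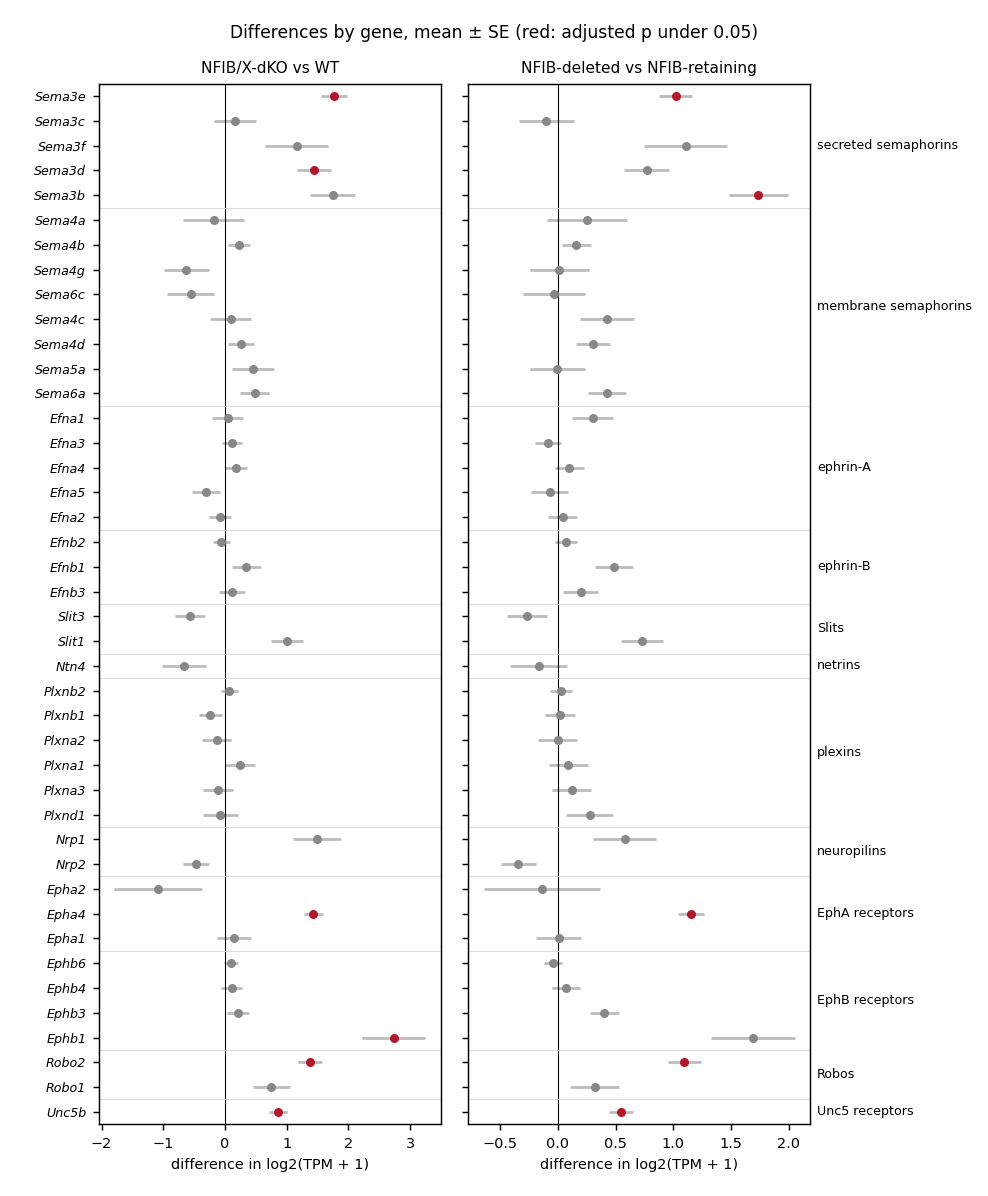
Differences in log2(TPM + 1) with their SE from limma for the 42 tested members by family, with NFIB/X-dKO minus WT on the left and NFIB-deleted minus NFIB-retaining on the right. Red points passed an adjusted p of 0.05, 6 on the left and 5 on the right, all above 0. No plexin or ephrin passed, and their differences run from -0.31 to 0.34 on the left and from -0.08 to 0.49 on the right.

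In NFIB-cKO cells 1 of 42 members, Epha4, rose against WT, and 0 fell. Over all genes tested, 0.719% passed. This comparison and the preceding one share the WT libraries. The Epha4 difference was 1.09 ± 0.16 (adjusted p = 0.0391), with both NFIB-cKO libraries above both WT libraries. Robo2, at 1.16 ± 0.20 (adjusted p = 0.0700), Sema3b, at 1.40 ± 0.36 (adjusted p = 0.153), and Sema3e, at 0.72 ± 0.20 (adjusted p = 0.187), did not pass, although both NFIB-cKO libraries of each were above both WT libraries. The Epha4 call was lost in 12 of 16 alternatives, with adjusted p from 0.0297 to 0.222, among them leaving out WT 34 or either library of NFIB-cKO, NFIX-cKO or NFIB/X-dKO.

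In NFIX-cKO cells 0 of 42 members passed limma against WT, and over all genes 0.149% did. At an unadjusted p under 0.05 there were 2 members, Ephb6 and the plexin Plxna2, against 6.81% of all genes. Ephb6 was higher in both NFIX-cKO libraries, by 0.40 ± 0.11 (adjusted p = 0.526). Plxna2, a plexin for secreted and class 6 semaphorins, had 51.09 and 39.20 TPM in NFIX-cKO against 68.14 and 71.04 TPM in WT, a difference of -0.63 ± 0.24 (adjusted p = 0.691). For 7 of the 42 members both NFIX-cKO libraries were above both WT libraries, against 9.64% of all genes, and for 7 both were below, against 16.2%. Those above were Slit1, Epha4, Efna4, Ephb6, Sema3d, Robo2 and Sema3e, which were named after their values were seen.

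The next comparison set the 4 libraries with Nfib deleted (NFIB/X-dKO and NFIB-cKO) against the 4 NFIB-retaining ones (NFIX-cKO and WT). Each side held 2 animals of the 30s and 2 of the 80s, so the animal series was balanced. NFIX-cKO carried 1 floxed Nfib allele, so the sides are not loss of Nfib against intact Nfib. The comparison also leaves the Cre and the YFP gate unbalanced, since WT alone lacked both. It uses the same libraries as the comparisons above and is no independent evidence. In it 5 of 42 members rose and 0 fell, against 2.48% of all genes in either direction and 1.48% higher. These were the receptors Epha4 (1.15 ± 0.11, adjusted p = 0.00562), Robo2 (1.10 ± 0.14, adjusted p = 0.0135) and Unc5b (0.55 ± 0.10, adjusted p = 0.0446) and the ligands Sema3e (1.02 ± 0.14, adjusted p = 0.0187) and Sema3b (1.73 ± 0.26, adjusted p = 0.0211). Epha4 averaged 75.0 ± 11.7 TPM in NFIB-deleted libraries and 33.1 ± 4.37 TPM in NFIB-retaining libraries (SD, n = 4 each). Robo2 averaged 30.6 ± 4.36 TPM in NFIB-deleted libraries and 13.9 ± 2.68 TPM in NFIB-retaining libraries. Sema3b averaged 7.30 ± 1.46 TPM in NFIB-deleted libraries and 1.57 ± 0.924 TPM in NFIB-retaining libraries. Of these 5, Epha4, Robo2, Sema3b and Unc5b had all 4 NFIB-deleted libraries above the other 4, whereas NFIX-cKO 32 (116.50 TPM) was above NFIB-cKO 81 (114.05 TPM) for Sema3e.

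In all, 8 of the 42 members had their 4 NFIB-deleted libraries above the 4 others (6.84% of all genes did), and 1 had them below (2.11%). The 8 were Epha4, Robo2, Sema3b, Sema3f, Slit1, Unc5b and the membrane semaphorins Sema4d and Sema6a, and the 1 below was Nrp2. Nrp2, a neuropilin, had 1.26 and 0.91 TPM in NFIB/X-dKO, 1.46 and 1.13 TPM in NFIB-cKO, 1.59 and 1.73 TPM in NFIX-cKO, and 1.92 and 1.83 TPM in WT. Its difference was -0.34 ± 0.15 (adjusted p = 0.339). Sema3f, a secreted semaphorin, had 31.65 and 31.19 TPM in NFIB/X-dKO, 28.16 and 26.86 TPM in NFIB-cKO, 24.86 and 6.23 TPM in NFIX-cKO, and 12.58 and 14.52 TPM in WT. The spread between the NFIX-cKO libraries was wide, and the difference of 1.11 ± 0.36 did not pass (adjusted p = 0.194). Ephb1 (1.69 ± 0.36, adjusted p = 0.0649), Slit1 (0.73 ± 0.18, adjusted p = 0.106), Sema3d (0.77 ± 0.20, adjusted p = 0.113) and the ephrin-B receptor Ephb3 (0.40 ± 0.13, adjusted p = 0.186) did not pass either. With the animal series as a covariate Ephb1 did pass (limma, adjusted p = 0.00992), and over its alternatives the adjusted p ran from 0.00601 to 0.254.

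The Epha4 call held under each of the 15 alternatives, with differences from 1.04 to 1.26 and adjusted p from 0.00356 to 0.0427. The Unc5b call was lost in 11 of 15, including with any 1 of the 8 libraries left out, with differences from 0.44 to 0.59 and adjusted p from 0.0172 to 0.288. The count was 1 without NFIB-cKO 85 (0.692% of all genes), NFIB/X-dKO 33 (0.467%) or NFIB/X-dKO 36 (0.413%), where Robo2 differed by 1.01 to 1.15. It was 3 without NFIB-cKO 81 (0.66%), without NFIX-cKO 88 (1.33%) or after median-of-ratios scaling (2.1%).

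Within the animals of the 30s (NFIB/X-dKO against NFIX-cKO 32 and WT 34) and those of the 80s (NFIB-cKO against NFIX-cKO 88 and WT 82), 29 of 42 members had a difference of the same sign. Both differences exceeded 0.5 for 7 members. Neither count was made over all genes, so neither can be read as particular to the guidance genes. The median difference over all genes was 0.10 in NFIB-deleted against NFIB-retaining libraries. Epha4 differed by 1.43 in the 30s and 0.88 in the 80s, and Robo2 by 1.36 and 0.83. Sema3e differed by 1.42 and 0.62, and Sema3b by 2.02 and 1.45. Ephb1 (1.75 and 1.63), Sema3f (0.79 and 1.43) and Slit1 (0.91 and 0.54) completed the 7. With 2 libraries a side, these are values without a test, and the 2 series also differ in whether Nfix was deleted in the NFIB-deleted animals. With the groups in the model, the difference between the series rests on NFIX-cKO and WT alone. In that model 4 members were higher in the 80s, Epha2 (1.67), Sema4a (1.24), Sema6c (0.86) and Efna1 (0.56), against 3.23% of all genes. Against 12.6% of all genes, 2 members were lower, Ephb1 (-1.14) and Sema5a (-0.76). Epha2, for example, had 37.19 and 39.70 TPM in NFIB/X-dKO, 61.97 and 144.11 TPM in NFIB-cKO, 28.97 and 98.70 TPM in NFIX-cKO, and 46.67 and 144.79 TPM in WT. Its level followed the animal series in NFIX-cKO and WT, and NFIB-cKO 81 lay apart from NFIB-cKO 85.

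**Figure D4:**
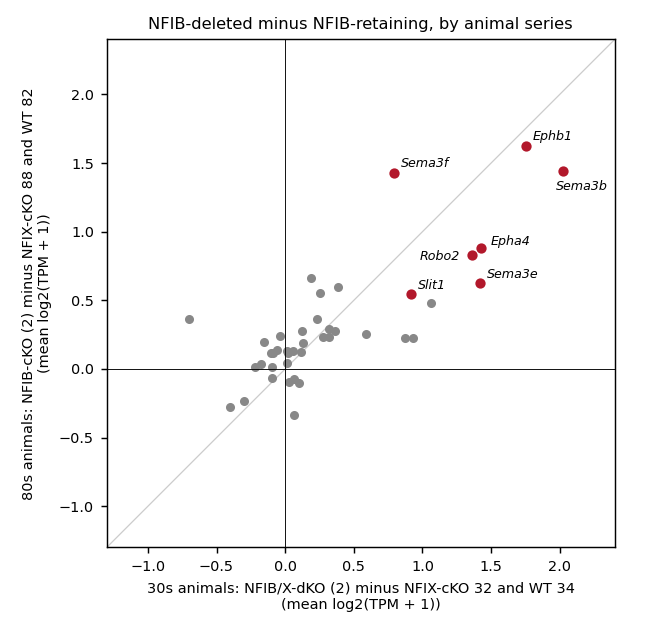
Difference in mean log2(TPM + 1) between NFIB-deleted and NFIB-retaining libraries in the 30s animals (horizontal) and the 80s animals (vertical), with 1 point for each of the 42 tested members. The 7 named points exceed 0.5 on both axes, and none lies below -0.5 on both. The same counts were not made over all genes.

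The group means of 9 of the 42 members were ordered NFIB/X-dKO, NFIB-cKO, NFIX-cKO and WT, high to low, against 8.68% of all genes. These were Sema3e, Sema3d, Sema3f, Slit1, Epha4, Ephb1, Robo2 and the membrane semaphorins Sema4b and Sema6a. Neighbours in the order often overlapped, as NFIB/X-dKO and NFIB-cKO did for Robo2 and NFIB-cKO and NFIX-cKO did for Sema3e. In the opposite order, WT highest, stood 1 member, Nrp2, against 2.9% of all genes.

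What deletion of Nfix added to that of Nfib was asked by NFIB/X-dKO against NFIB-cKO, where genotype and animal series cannot be told apart. By limma 0 of 42 members passed, and 0.227% of all genes did. At an unadjusted p under 0.05 there were 10 members, against 17.2% of all genes. The members with higher values in NFIB/X-dKO included Sema3e (1.04 ± 0.20, adjusted p = 0.178), Unc5b (0.66 ± 0.15, adjusted p = 0.198) and Nrp1 (1.45 ± 0.39, adjusted p = 0.246). Those with lower values included the ligands Efna1 (-0.69 ± 0.26, adjusted p = 0.277), Sema4g (-0.98 ± 0.36, adjusted p = 0.276) and Sema4a (-1.19 ± 0.49, adjusted p = 0.287). Fitted on these 4 libraries alone, limma called 10 members, 5 higher (Sema3e, Unc5b, Nrp1, Ephb1 and Sema5a) and 5 lower (Efna1, Sema4a, Sema4c, Sema4g and Sema6c). This is 23.8% of the members, near the 21.0% of all genes called in that fit. Of the 10, 5 (Efna1, Sema4a, Sema6c, Ephb1 and Sema5a) also differed between the animal series, as did 3.23% (higher in the 80s) and 12.6% (lower) of all genes. The share among all genes called in the fit on these 4 libraries was not counted. With the series as a covariate limma called 0 members, as it had without the covariate when all libraries were fitted.

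Against NFIX-cKO, which holds count tables for both libraries as NFIB/X-dKO does, edgeR called 0 of the 54 members it tested, against 0.322% of all genes. At an unadjusted p under 0.05 it had 14, against 14.7% of all genes. The smallest adjusted p belonged to Sema3e (1.09 ± 0.14, adjusted p = 0.0913), Nrp1 (1.19 ± 0.16, adjusted p = 0.0999) and Sema3b (2.28 ± 0.31, adjusted p = 0.102), all higher in NFIB/X-dKO. Expected counts of Sema3e were 67354.97 and 68024.80 in NFIB/X-dKO and 29797.06 and 30275.07 in NFIX-cKO, and those of Sema3b were 782 and 811 in NFIB/X-dKO and 203 and 110 in NFIX-cKO. For both genes each NFIB/X-dKO library was above each NFIX-cKO library. DESeq2 on the same counts called 9 of 67 members (13.4%) and 2.71% of all genes. All 9 were higher in NFIB/X-dKO: Sema3b, Sema3e, Nrp1, Epha4, Unc5d, Unc5b, Robo2, Ephb1 and Slit1. Without NFIX-cKO 32 edgeR called 26 members (46.4%) and 36.4% of all genes, and without NFIX-cKO 88 it called 10 members (18.2%) and 9.11% of all genes, each with a lone NFIX-cKO library assumed to vary like NFIB/X-dKO.

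The non-additive contrast asked whether the difference of NFIB/X-dKO from NFIB-cKO departed from that of NFIX-cKO from WT. Limma called 0 of 42 members and 0.117% of all genes. At an unadjusted p under 0.05 there were 4 members, against 9.43% of all genes. Unc5b had a value of 0.71 ± 0.21 (adjusted p = 0.448) and Efna1 one of -0.86 ± 0.36 (adjusted p = 0.519).

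The promoters of members called in NFIB-deleted against NFIB-retaining libraries and also in the double knockout against WT are shown because nuclear factor I proteins bind DNA as dimers at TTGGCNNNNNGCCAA, each protein contacting TTGGC. Each sequence runs from 250 bases before to 50 bases after the gene's start in RefSeq (GRCm38.p6), 5′ to 3′ on the gene's strand, with TTGGC or its reverse complement in capitals. Epha4 (chr1:77515039-77515338, minus strand) holds 2 copies, the first beginning 34 bases before the start and the other at base 42 of the transcript. Sema3e (chr5:14025026-14025325, plus strand) holds 1, beginning 177 bases before the start. Robo2 at the start nearest its GENCODE start (chr16:74411776-74412075, minus strand) and Unc5b (chr10:60831532-60831831, minus strand) hold 0, and another RefSeq start of Robo2 holds 1.
Epha4: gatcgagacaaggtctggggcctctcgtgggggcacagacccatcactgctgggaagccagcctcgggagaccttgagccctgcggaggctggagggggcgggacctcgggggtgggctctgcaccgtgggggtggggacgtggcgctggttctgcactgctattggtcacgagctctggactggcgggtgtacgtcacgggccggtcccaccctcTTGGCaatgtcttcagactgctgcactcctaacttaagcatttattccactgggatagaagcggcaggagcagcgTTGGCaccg
Sema3e: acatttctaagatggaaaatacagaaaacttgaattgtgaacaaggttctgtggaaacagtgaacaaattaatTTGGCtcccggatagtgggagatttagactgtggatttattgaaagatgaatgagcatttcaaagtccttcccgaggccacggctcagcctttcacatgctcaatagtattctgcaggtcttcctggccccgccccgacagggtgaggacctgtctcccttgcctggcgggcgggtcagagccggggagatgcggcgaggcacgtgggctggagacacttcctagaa
Robo2: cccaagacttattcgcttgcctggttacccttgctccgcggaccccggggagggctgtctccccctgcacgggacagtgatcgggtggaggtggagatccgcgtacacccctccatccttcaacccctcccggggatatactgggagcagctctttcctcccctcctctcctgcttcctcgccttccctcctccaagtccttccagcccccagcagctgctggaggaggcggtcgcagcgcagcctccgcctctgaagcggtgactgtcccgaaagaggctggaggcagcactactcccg
Unc5b: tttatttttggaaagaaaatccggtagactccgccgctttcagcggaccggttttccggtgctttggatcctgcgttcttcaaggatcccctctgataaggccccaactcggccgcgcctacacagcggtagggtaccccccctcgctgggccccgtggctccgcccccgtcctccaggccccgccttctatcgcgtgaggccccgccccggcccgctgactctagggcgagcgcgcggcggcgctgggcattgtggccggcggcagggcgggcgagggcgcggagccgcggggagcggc

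Counted on both strands, TTGGC is in 46.7% of all 32851 promoters of that length, in 39.2% of the 74 promoters of 58 guidance genes, and in 34.7% of the 49 promoters of tested members. The longer TTGGCA, which contains it, is in 14.1% of all promoters and 5.41% of those of guidance genes, and both copies in Epha4 read TTGGCA. The full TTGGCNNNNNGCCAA is in 0.0365% of all promoters and in 0 of the 74. Binding was not measured, and these are matches of letters within the window. Several members lie near each other in the genome. On chromosome 5 (GRCm38) Sema3d (12383385-12588948), Sema3a and Sema3e (14025276-14256689) follow one another with gaps of 536 and 423 kb, and Sema3a between them did not exceed 0.26 TPM in any library. On chromosome 9, Sema3b (107597674-107609229) and Sema3f (107681500-107710475) lie 72.3 kb apart on the minus strand. On chromosome 16, Robo1 (72308306-73046095) and Robo2 (73891839-74411825) lie 846 kb apart on opposite strands, and Epha4 (77367185-77515088) is on chromosome 1.

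Other genes of the pathways were taken from lists of partners and effectors. Of 48 intracellular effectors 45 were tested. In NFIB/X-dKO against WT 6 rose and 1 fell, where 2.88% of all genes passed in either direction and 1.62% were higher. The list median was 0.22 against 0.16 over all genes. Gap43, a growth cone protein, had 10.2 and 13.62 TPM in NFIB/X-dKO, 3.1 and 1.98 TPM in NFIB-cKO, 0.65 and 0.64 TPM in NFIX-cKO, and 0.18 and 0.31 TPM in WT. The 4 groups did not overlap, and the difference from WT was 3.36 ± 0.25 (adjusted p = 0.00252). Dpysl3, a collapsin response mediator acting below semaphorin receptors, had 38.09 and 36.04 TPM in NFIB/X-dKO, 26.55 and 31.09 TPM in NFIB-cKO, 18.72 and 15.61 TPM in NFIX-cKO, and 6.45 and 7.63 TPM in WT. It too was separated in all 4 groups, at 2.25 ± 0.17 for NFIB/X-dKO against WT (adjusted p = 0.00252) and 1.89 ± 0.17 for NFIB-cKO against WT (adjusted p = 0.00716). The kinase Pak1 (1.26), the guanine exchange factor Vav3 (1.47) and the actin regulators Enah (0.80) and Ablim3 (1.09) also rose in NFIB/X-dKO. Ngef, ephexin 1, a guanine exchange factor that binds Epha4, fell by 2.95 ± 0.28 (adjusted p = 0.00482), with 0.96 and 0.73 TPM in NFIB/X-dKO, 1.26 and 1.52 TPM in NFIB-cKO, 3.86 and 2.31 TPM in NFIX-cKO, and 16.24 and 10.77 TPM in WT. Its WT libraries stood above the 6 knockout libraries, and it fell by 2.58 ± 0.28 in NFIB-cKO as well (adjusted p = 0.0156).

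Of 29 other guidance ligands and receptors 17 were tested. In NFIB/X-dKO 1 rose and 2 fell against WT, where 2.88% of all genes passed in either direction, and the list median was 0.14. Ryk, a Wnt receptor used in axon repulsion, rose by 0.87 ± 0.13 (adjusted p = 0.0221), with 199.37 and 199.41 TPM in NFIB/X-dKO, 122.92 and 128.1 TPM in NFIB-cKO, 132.08 and 125.81 TPM in NFIX-cKO, and 120.6 and 97.8 TPM in WT. The chemokine Cxcl12 fell by 2.30 ± 0.28 (adjusted p = 0.00978), with 17.04 and 16.29 TPM in NFIB/X-dKO, 35.06 and 29.53 TPM in NFIB-cKO, 35.05 and 67.72 TPM in NFIX-cKO, and 87.42 and 85.12 TPM in WT. Gfra2, the neurturin receptor, fell by 2.63 ± 0.34 (adjusted p = 0.0119), with 6.52 and 5.78 TPM in NFIB/X-dKO against 33.93 and 55.0 TPM in WT. Both genes were lowest in the NFIB/X-dKO libraries and highest in the WT libraries. The netrin receptor Dcc did not exceed 0.03 TPM. Of 10 glypicans and syndecans, which bind Slits and other guidance ligands, 9 were tested. In NFIB/X-dKO against WT 0 passed limma, against 2.88% of all genes.

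**Figure D5:**
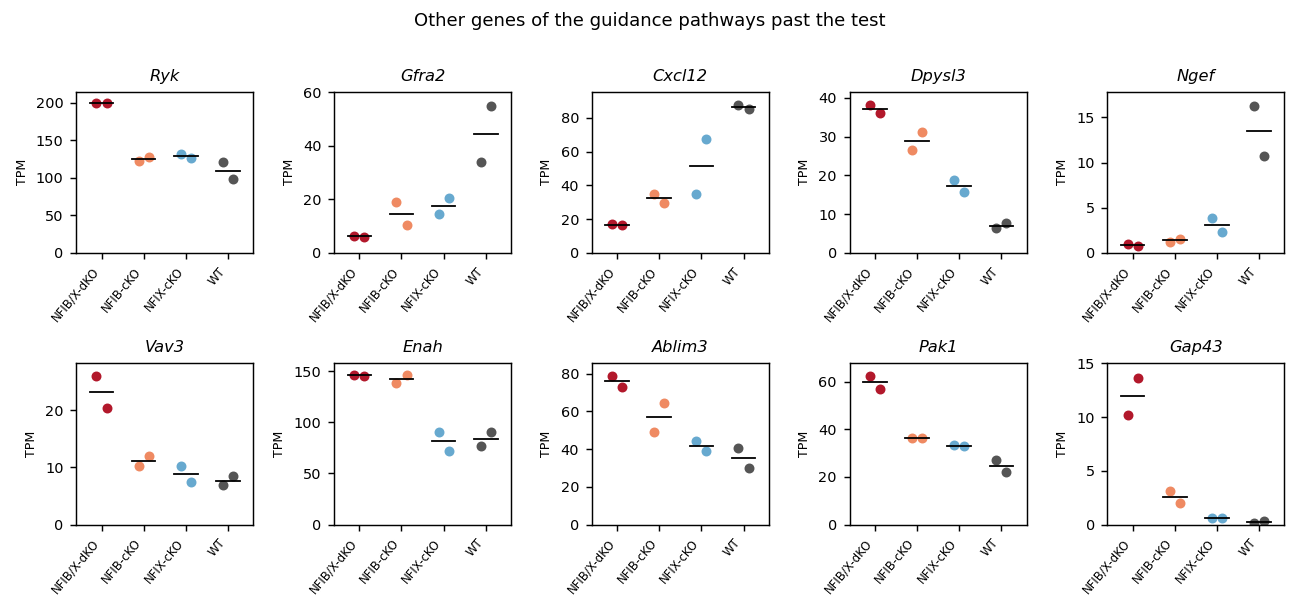
TPM in each library (points) and group mean (bars) of the 10 partner and effector genes that passed limma in the double knockout against WT or in NFIB-deleted against NFIB-retaining libraries. Gap43 and Dpysl3 rank NFIB/X-dKO, NFIB-cKO, NFIX-cKO and WT from high to low, and Cxcl12, Gfra2 and Ngef are highest in the WT libraries.

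Marker genes of other skin cells were read beside these results, since in bulk samples a change in the share of a cell type and a change in RNA per cell cannot be told apart. Summed neuronal markers ran from 2.11 to 5.48 TPM in NFIB-deleted and from 2.44 to 4.89 TPM in NFIB-retaining libraries, with 7 of 8 below 1 TPM in every library. Endothelial markers ran from 6.43 to 7.11 TPM in NFIB-deleted and from 5.59 to 6.62 TPM in NFIB-retaining libraries, with 6 of 8 below 1 TPM throughout. Glial markers ran from 27.78 to 33.27 TPM in NFIB-deleted and from 23.13 to 30.59 TPM in NFIB-retaining libraries. Melanocyte markers ran from 80.5 to 113.35 TPM in NFIB-deleted and from 64.91 to 86.33 TPM in NFIB-retaining libraries. These sums overlapped between the sides, but Mitf made up most of the melanocyte sum. Of the 7 melanocyte markers, 3 were higher in all 4 NFIB-deleted libraries than in the 4 others, as 6.84% of all genes were. These were Tyrp1 (5.41 to 7.23 TPM in NFIB-deleted and 1.6 to 4.33 TPM in NFIB-retaining libraries), Mlana (0.68 to 1.54 TPM and 0.15 to 0.63 TPM on the same sides) and Kit (1.03 to 1.39 TPM and 0.61 to 0.99 TPM). The list's median difference was 0.54, and 0 of 7 passed limma. Immune markers ran from 12 to 35.13 TPM in NFIB-deleted and from 15.73 to 50.4 TPM in NFIB-retaining libraries.

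The summed fibroblast markers were higher in the 4 NFIB-deleted libraries, from 55.8 to 86.96 TPM, than in the 4 NFIB-retaining libraries, from 24.55 to 42.41 TPM. The defining markers Lum, Dcn and Pdgfra did not exceed 0.34 TPM in any library, and Col1a1 was the largest part of the sum in the NFIB-deleted libraries, with 53.32 and 65.13 TPM in NFIB/X-dKO, 77.31 and 55.09 TPM in NFIB-cKO, 14.63 and 8.27 TPM in NFIX-cKO, and 12.21 and 16.65 TPM in WT. Col1a2 had 2.17 and 2.81 TPM in NFIB/X-dKO, 9.22 and 3.26 TPM in NFIB-cKO, 10.6 and 33.56 TPM in NFIX-cKO, and 11.76 and 8.01 TPM in WT, with the NFIB-deleted and NFIB-retaining libraries overlapping. Merkel cell markers also separated the sides, from 24.7 to 64.51 TPM in NFIB-deleted and from 4.72 to 16.9 TPM in NFIB-retaining libraries. Limma on these sides called 1 of 2 tested fibroblast markers and 1 of 2 tested Merkel cell markers higher and 0 lower, where 1.48% of all genes were higher. Against WT, 1 of 2 tested fibroblast markers was higher in NFIB/X-dKO and in NFIB-cKO, and 1 of 2 tested Merkel cell markers in each knockout group. Of all genes, 2.88% passed in either direction in NFIB/X-dKO, 0.719% in NFIB-cKO and 0.149% in NFIX-cKO. Piezo2 had 54.07 and 57.68 TPM in NFIB/X-dKO, 15.75 and 20.5 TPM in NFIB-cKO, 10.66 and 8.58 TPM in NFIX-cKO, and 1.79 and 2.18 TPM in WT. Krt8 had 9.19 and 6.42 TPM in NFIB/X-dKO, 8.53 and 13.5 TPM in NFIB-cKO, 6.03 and 5.11 TPM in NFIX-cKO, and 2.72 and 6.8 TPM in WT, while Atoh1, Isl1 and Krt20 did not exceed 0.08 TPM. Epidermal markers, from 1753.96 to 3730.75 TPM in NFIB-deleted and from 1807.46 to 4313.47 TPM in NFIB-retaining libraries, followed the animal series, with each of the 4 libraries of the 30s above each of the 80s. The part of these markers in the guidance gene results was not tested. Among stem cell markers Lhx2 (-1.42 ± 0.15, adjusted p = 0.00612) and Lgr5 (-1.57 ± 0.20, adjusted p = 0.0128) fell in NFIB/X-dKO against WT.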

How the data were processed

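RNA from sorted hair follicle stem cells was sequenced for 8 libraries. The authors deposited a TPM table for all 8 and, for 5, gene tables with expected counts, FPKM (not used here) and TPM, from RSEM 1.2.30 with Bowtie2 2.2.9 (mm10, GRCm38; per the submitters' processing notes). The annotation release was not given in the sources used here. TPM in both kinds of table were equal (largest difference 0), and no column was left unmapped. Groups came from the sample titles, and animal numbers were taken as separate animals. With 2 per group, p-values set a difference against the spread between animals within groups. Limma pooled this spread over the groups and moderated it with that of other genes.

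Limma 3.58.1 (R 4.3.3) was run on log2(TPM + 1), pseudocount 1, with a variance trend, on the 15434 genes that reached 1 TPM in 2 or more libraries. All 8 libraries shared 1 fit (4 residual and 3.10 prior degrees of freedom), with Benjamini-Hochberg adjustment over all genes tested. This scale understates changes of weakly expressed genes. EdgeR 4.0.16 (quasi-likelihood, TMM, filterByExpr) took rounded expected counts for NFIB/X-dKO against NFIX-cKO (18349 genes), and DESeq2 1.42.0 was an alternative. Steps were tested on simulated data. TPM keeps no depth, so no interval was computed for single levels.

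Members and lists were chosen with earlier results of these data known. Named with values were members past the test in any comparison, the 10 smallest p of NFIB-deleted against NFIB-retaining libraries and of the double knockout against WT, the highest member of each family and the 10 highest of all. Members that a count singles out, such as Nrp2, Plxna2 and Sema4g, were added after their values were seen. GENCODE M21 gave coordinates (67 of 67 matched). RefSeq (GRCm38.p6) gave promoters.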

Additional observations from a re-analysis of the deposited data

Results flagged for a closer look

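Differences of opposite sign between groups that differ in the same targeted gene drew attention to 3 members. In each case both libraries moved one way in one background and both moved the other way in the other. The share of all genes that meet this rule was not counted, so the flag is not particular to guidance genes. The difference between the backgrounds was tested by the non-additive limma contrast, which none of the 3 passed after adjustment over all genes. For Ephb6 the contrast was -0.52 (limma adjusted p = 0.493). Its level was 283.63 and 284.82 TPM in NFIB/X-dKO against 320.03 and 298.84 TPM in NFIB-cKO, but 363.75 and 337.75 TPM in NFIX-cKO against 252.82 and 278.53 TPM in WT, so it appeared for deletion of Nfix and for deletion of Nfib. For Plxna2 the contrast was 0.98 (limma adjusted p = 0.509). NFIB/X-dKO, at 59.53 and 67.06 TPM, was above NFIX-cKO, at 51.09 and 39.20 TPM, while NFIB-cKO, at 62.61 and 38.68 TPM, was below WT, at 68.14 and 71.04 TPM. For Sema4d, a membrane semaphorin known from immune cells, the contrast was 0.49 (limma adjusted p = 0.541). NFIB/X-dKO, at 5.46 and 6.88 TPM, was above NFIB-cKO, at 5.39 and 5.04 TPM, while NFIX-cKO, at 4.56 and 3.27 TPM, was below WT, at 4.91 and 5.02 TPM. NFIB/X-dKO and NFIB-cKO also differ in animal series, which cannot be told apart from Nfix there. NFIX-cKO carried 1 floxed Nfib allele, and both single knockouts also differ from WT in the Cre and the YFP gate. The groups compared therefore did not differ by the same deletion alone in both backgrounds.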

How the results depend on the processing

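Of the 21 member differences followed through the alternatives (10 of NFIB/X-dKO against WT, 10 of NFIB-deleted against NFIB-retaining libraries, and Epha4 in NFIB-cKO against WT), 0 changed sign. For NFIB/X-dKO against WT (6 members), median-of-ratios scaling and dropping the filter on low values left 3 each, the fit within series gave 8 (7 higher, 1 lower), and leaving out single libraries gave 0 to 7. For NFIB-cKO against WT (1 member), the animal series as a covariate gave 2, while fitting the compared groups alone, scaling, scaling with the series, no filter, and fitting within series gave 0 each, and leaving out libraries gave 0 to 1. For NFIB-deleted against NFIB-retaining libraries (5 members), scaling gave 3, no filter 2, and leaving out libraries 1 to 6. For NFIB/X-dKO against NFIB-cKO (0 members), the compared groups alone gave 10 (21.0% of all genes). For NFIB/X-dKO against NFIX-cKO (0 members), DESeq2 gave 9 (2.71% of all genes), limma on TPM 2 (0.784%), no filter 2 (0.662%), NFIB-cKO 85 added with the series as a covariate 10 (9.5%), and leaving out libraries 0 to 26 (0% to 36.4%). For NFIX-cKO against WT and the non-additive contrast every alternative gave 0. The share of all genes called moved as well. For NFIB/X-dKO against WT it was 2.88% in the main fit, 2.89% with scaling and 0.835% with no filter. For NFIB-deleted against NFIB-retaining libraries these shares were 2.48%, 2.1% and 0.649%. For NFIB-cKO against WT they were 0.719%, 0.627% and 0.0897%, with 1.3% for the animal series as a covariate. The cause of these changes in counts and shares was not tested. Scaling combined with the series, the differences within series and the fit without NFIX-cKO were chosen after seeing the data. No paired analysis was possible because the groups share no animal number. Depth is known for 5 libraries only, and the 25 members removed by the filter on low values were not tested by limma with that filter.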
